A study of Rattus norvegicus with 13 samples.

Results

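The rat miR-200 family has 5 members, rno-miR-200a, rno-miR-200b, rno-miR-200c, rno-miR-141 and rno-miR-429, written below without the species prefix, and all 5 were measured among the 350 miRNAs of a rat miRNA array. The members were found by their names on the array, and the family was picked with earlier results of these data known. The study profiled primary cortical cultures prepared from rats on postnatal day 1, and neurons, oligodendrocytes and microglia were each run on 3 arrays and astrocytes on 4. Neurons were grown in Neurobasal medium with cytosine arabinoside, which removes dividing glia. Astrocytes were grown in MEM with horse serum and shaken overnight after 10 days to remove other cells. Oligodendrocytes were shaken off mixed cultures at 10 days and plated on poly-lysine. Microglia were the cells that floated above confluent mixed cultures, collected at 7 days according to the protocol, while their labels state 10 days in vitro, as for the other types. Strain, sex and the number of separate cultures are not stated, so p-values measure the spread between these samples, which may be technical.

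In mammals the miR-200 family is known for maintaining the epithelial state. Its members repress Zeb1 and Zeb2, transcription factors that silence the E-cadherin gene Cdh1, and Zeb1 and Zeb2 in turn repress the miRNA genes. The family is made from a pair of clusters, miR-200c with miR-141 and miR-200b with miR-200a and miR-429, and is not among the miRNAs usually used to mark microglia.

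The members form groups by the seed, the stretch of bases 2 to 8 that pairs with target transcripts, and this grouping cuts across the clusters. The sequences are shown because the finding follows the clusters and not the seeds. They are from RefSeq (assembly GRCr8), all on the minus strand, with the seed in capitals. The mature strands of the members detected here were:
miR-200c: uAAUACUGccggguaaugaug
miR-141: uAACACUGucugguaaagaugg

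The hairpins of the other members, with the same letters in capitals, were:
miR-200b: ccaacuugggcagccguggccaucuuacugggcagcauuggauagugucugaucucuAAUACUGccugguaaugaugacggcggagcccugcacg
miR-200a: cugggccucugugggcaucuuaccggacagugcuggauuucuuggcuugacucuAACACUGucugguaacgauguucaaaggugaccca
miR-429: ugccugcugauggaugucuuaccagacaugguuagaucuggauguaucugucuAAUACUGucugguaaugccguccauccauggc

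miR-200c, miR-200b and miR-429 share AAUACUG, and miR-141 and miR-200a share AACACUG. Positions below are counted from 1 at the 5′ end of the mature strand, and the mature strand's base comes first. Across its 21 bases, mature miR-200c differed from the matching stretch of the miR-200b hairpin by 1 substitution, G11U, which lies outside the seed. Mature miR-141, 22 bases long, differed from the miR-200a hairpin by A17C and G22U. Within the cluster, miR-200c differed from miR-141 by 4 substitutions, U4C, C9U, G11U and U17A, of which the first changes the seed.

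The array file places the probes of miR-200c and miR-141 on rn4 within chr4:160840919-160841363, a span of 445 bases. The probes of miR-200b, miR-200a and miR-429 lie within chr5:172897196-172899031, a span of 1836 bases. In the RefSeq gene table for GRCr8, miR-200c and miR-141 are not inside another gene. They lie between Phb2 and Ptpn6, on the strand of Ptpn6, which encodes a tyrosine phosphatase known from blood cells. The other 3 members lie inside Ttll10, on its strand. Transcripts of these genes were not measured on the array.

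Each member had 2 probes with 10 spots each, so 20 spots per array. Total signal is the gene intensity that the scanner software summed for a miRNA from its probes after background subtraction, before any scaling between arrays; it can fall below 0. The software gave each total an error and a detection call. The summed signal of all miRNAs ran from 107624 to 514270 units per array, from 128614 to 160446 in microglia, and 160 to 258 miRNAs were detected per array. Astrocytes and microglia shared 1 slide and scan, and neurons and oligodendrocytes the other. The comparison of microglia with astrocytes was therefore made within a slide, whereas slide and cell type cannot be told apart in the comparisons with neurons and oligodendrocytes. Astrocyte array 3 stood apart in its noise: errors on its family totals were 11.5 to 11.6 units, against 3.28 to 8.18 units on the other 12 arrays. Its negative control spots had a 95th percentile of 30.4 units, against 3.66 to 7.19 units elsewhere.

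The miR-200c and miR-141 pair was detected in microglia and in no other type, and the miR-200b, miR-200a and miR-429 cluster was detected in none of the 4 types. miR-200c had a total signal of 82.6, 105 and 73.2 units on microglia arrays 1, 2 and 3. It read 1.31, 2.71 and 2.7 units in neurons, 3, 2.39, 1.29 and 2.99 in astrocytes, and 2.8, 0.105 and 2.13 in oligodendrocytes. All 3 microglia arrays lay above the other 10 with no overlap, and the signals in microglia were 10.1 to 12.8 times their own error.

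miR-141, transcribed from the same cluster, read 49.9, 44.3 and 36.3 units in microglia. It read 0.55, 3.82 and 0.176 units in neurons, -0.11, 3.08, 0.643 and 2.14 in astrocytes, and 2.99, 2.1 and 0.25 in oligodendrocytes. The groups again did not overlap, with microglia signals at 6.3 to 9.63 times their error and none of the other 10 arrays above 1.05 times. Total signals of microglia were above those of all 10 other arrays for 8.29% of the 350 miRNAs. The mean in microglia was 86.9 ± 16.4 units for miR-200c and 43.5 ± 6.84 units for miR-141 (SD, n = 3). No order could be given among neurons, astrocytes and oligodendrocytes, since none of their arrays detected either miRNA. In bulk RNA, few cells with a high level and many with a low level cannot be told apart, so these values do not say how many cells of a culture held miR-200c or miR-141.

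**Figure D1:**
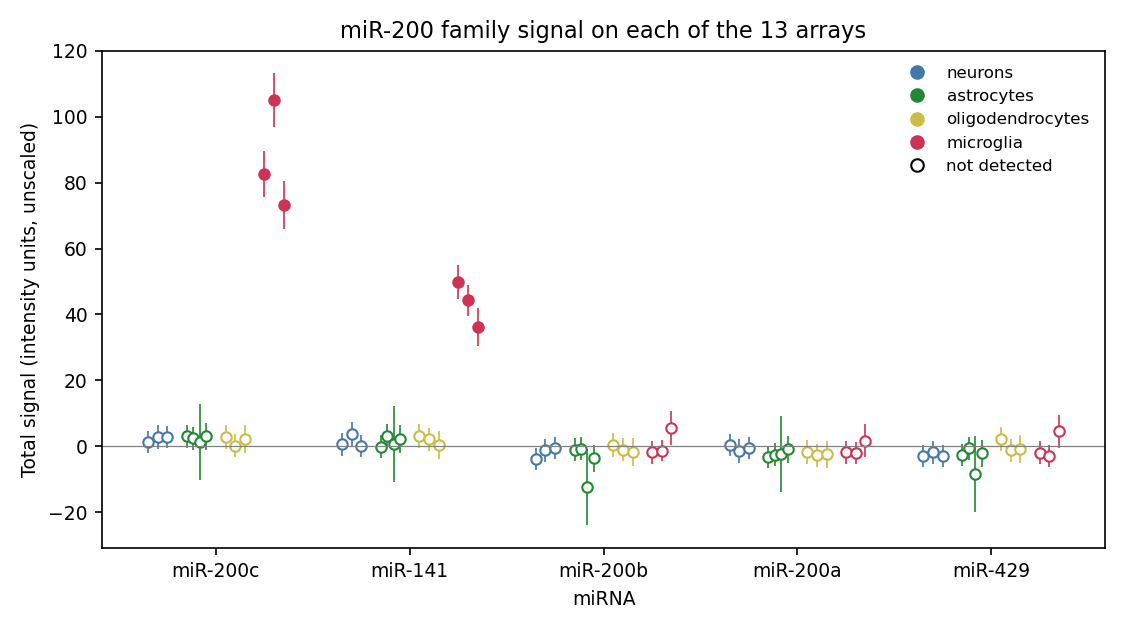
Total signal of the 5 family members on each of the 13 arrays, in intensity units before scaling between arrays. Points are arrays in replicate order within each cell type, bars are the scanner software's error, and open points were not detected. miR-200c at 73.2 to 105 units and miR-141 at 36.3 to 49.9 units in microglia stand above all other points, which reach at most 5.47 units.

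miR-200b, whose mature strand has the seed of miR-200c, read -1.9, -1.35 and 5.47 units on microglia arrays 1, 2 and 3, and from -12.5 to 0.377 units on the other 10 arrays. miR-429, with the same seed, read -1.95, -2.98 and 4.46 units in microglia and from -8.33 to 2.28 elsewhere. miR-200a, with the seed of miR-141, read -1.84, -1.99 and 1.68 units in microglia and from -3.21 to 0.429 elsewhere. For each of these 3 members microglia array 3 gave the highest of the 13 values, yet none was called detected, with signals 1.08 (miR-200b), 0.884 (miR-429) and 0.333 (miR-200a) times their error. The other 2 microglia arrays lay within the range of the other types, so the groups overlapped.

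The sign of the undetected signals also differed between the clusters. In the 10 arrays of neurons, astrocytes and oligodendrocytes, the miR-200c total was above 0 on 10 and the miR-141 total on 9, although none was detected. The totals of miR-200b, miR-200a and miR-429 were each above 0 on 1 of these 10 arrays. The median negative control spot read -1.76 units over all arrays, so values around 0 are not below the array's blank. miR-200c in these types reached at most 0.874 times its error, and a low level there was not detectable at this signal.

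Single spots gave the same picture. In microglia 106 of 120 spots of miR-200c and miR-141 were well above background by the software's call, or 88.3%, against 1 of 400 spots on the other arrays. For miR-200b, miR-200a and miR-429 the counts were 1 of 180 spots in microglia and 4 of 600 elsewhere. Among negative control spots 45 of 8736 had the call. No spot of the family was saturated.

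**Figure D2:**
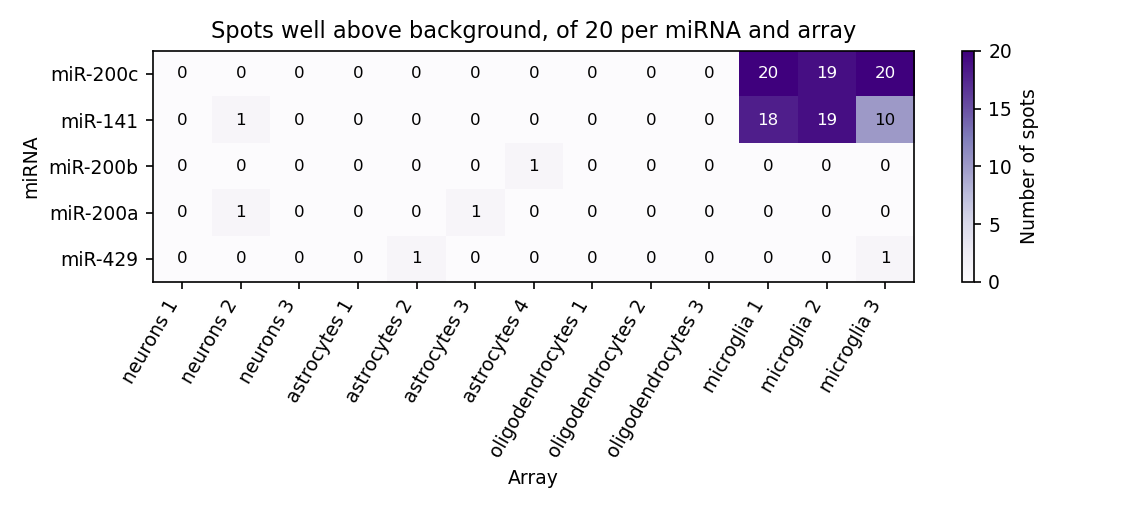
Number of spots called well above background for each family member on each array, of 20 spots per member and array. miR-200c had 19 or 20 such spots on every microglia array and miR-141 had 18, 19 and 10, while every other square holds 0 or 1.

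The probes of miR-200c read alike and those of miR-141 did not. In microglia the miR-200c probes gave 70.8 ± 13.7 and 57.7 ± 11.1 units (SD, n = 3), with 29 and 30 of 30 spots well above background. The longer miR-141 probe, which covers 17 bases, gave 44.5 ± 6.23 units with 30 of 30 spots, and the shorter, which covers 16 bases, gave 19.9 ± 4.54 units with 17 of 30 spots. On microglia array 3 the shorter probe had 0 of 10 spots with the call, at 14.9 units, and the longer one 10 of 10, at 38.2 units. The shorter miR-141 probe still read 14.9 to 23.7 units in microglia against -1.36 to 2.32 units on the other arrays, without overlap. Neither miR-200b probe, whose target differs from miR-200c by the single base named above, had a spot well above background on the microglia arrays, where they averaged 1.78 and -0.729 units.

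**Figure D3:**
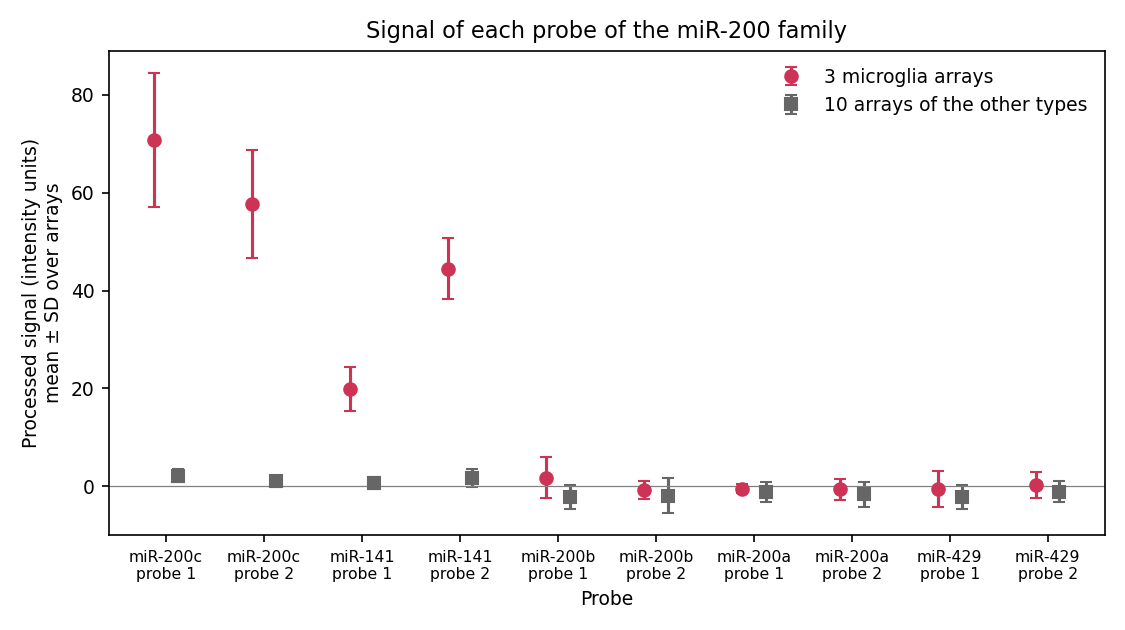
Processed signal of each of the 10 probes, in intensity units, as mean and SD over the 3 microglia arrays (circles) and the 10 arrays of the other types (squares). Both probes of miR-200c and both of miR-141 read higher in microglia, at 19.9 to 70.8 units, and the 6 probes of the other members lie near 0 in both groups.

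Detection in microglia alone was counted next among all miRNAs. Detection on all microglia arrays and on no other array was found for 2 of 350 miRNAs, or 0.571%, and these were miR-200c and miR-141. The same count was 39 for neurons, 2 for astrocytes (miR-143 and miR-31) and 0 for oligodendrocytes. The microglia count holds only the members themselves, and the family was picked with earlier results of these data known. It is therefore no support by itself. miR-126* was detected on 2 of the 3 microglia arrays and on no other array. Being undetected was common: 69 of 350 miRNAs, or 19.7%, were detected on no array, as were miR-200b, miR-200a and miR-429.

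For the comparison between types each array was divided by the 75th percentile of the 119 miRNAs detected on all arrays, and levels are given as log2 of that ratio, with a floor of -8.04 set by the lowest detected signals. The level of miR-200c was -3.64, -3.20 and -3.36 on the 3 microglia arrays, a mean of -3.40 ± 0.23 (SD, n = 3). The level of miR-141 was -4.37, -4.44 and -4.37, a mean of -4.39 ± 0.04. Once scaled, the miR-141 arrays lay closer together than their unscaled signals had. On all 10 other arrays both miRNAs lay at the floor, which is why the folds below are bounds. Each was taken per array of the other type against the lowest level detected on that array or the floor, whichever was higher, and averaged. That level belongs to the array's dimmest detected miRNA, and another miRNA can go undetected above it. On microglia array 3, miR-192 was undetected at -5.93, while the lowest detected level was -6.79. "At least" below therefore refers to this limit and not to the miRNA's own, and some other processing, including the deposited table, gave smaller differences.

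By this limit miR-200c was at least 23.4-fold higher in microglia than in astrocytes, the comparison within a slide (limma adjusted p = 2.61e-12). Against neurons the bound was at least 24.9-fold (limma adjusted p = 1.24e-12) and against oligodendrocytes at least 21-fold (limma adjusted p = 4.20e-12). miR-141 was at least 11.7-fold higher than in astrocytes (limma adjusted p = 6.34e-14). It was at least 12.5-fold higher than in neurons (limma adjusted p = 3.19e-14) and at least 10.5-fold higher than in oligodendrocytes (limma adjusted p = 1.28e-13). Against the mean of the other types, adjusted p was 4.52e-13 for miR-200c and 1.37e-14 for miR-141 in the same limma fit, and in its F test for any difference among the types 1.58e-12 and 4.39e-14. These p-values are too small, because the floor hides the spread of the 10 other arrays.

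Of the 5 members, 2 entered the test, which took the 268 miRNAs detected on at least 3 arrays, and both were called higher in microglia than in each other type. The same call was made for 19% of the tested miRNAs. By pair, the share called higher in microglia was 35.8% against astrocytes, 31% against neurons and 29.5% against oligodendrocytes, 34.3% were called against the mean of the other types, and 95.5% passed the F test. miR-200c and miR-141 entered only through their 3 microglia arrays and so had to differ, so the count of 2 is no support by itself. With all 350 miRNAs tested, where 14.6% had the call, miR-200b was 0.31 higher in log2 in microglia than in each other type (limma adjusted p = 0.208, 0.209 and 0.26 against neurons, astrocytes and oligodendrocytes). miR-429 was 0.21 higher with the same adjusted p-values, and miR-200a, at the floor on every array, had a difference of 0.00. The differences of miR-200b and miR-429 both come from microglia array 3, the only array where they lay above the floor.

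The size of the difference moved with the processing, while miR-200c and miR-141 stayed higher in microglia in the fits below. In the authors' deposited table, log2 values without this floor, miR-200c was 3.04 ± 0.0944 higher in microglia than in astrocytes (SE; limma adjusted p = 3.34e-11) and miR-141 2.42 ± 0.113 higher (limma adjusted p = 8.98e-10). The same table called 37.8% of miRNAs higher in microglia than in astrocytes. Its microglia values were 7.38, 7.63 and 7.45 for miR-200c and 6.85, 6.82 and 6.69 for miR-141. The 10 other arrays lay between 3.92 and 4.55 for miR-200c and between 3.92 and 4.57 for miR-141. With normexp background correction and an offset of 50 units, miR-200c was 1.32 ± 0.162 higher in log2 than in astrocytes (limma adjusted p = 9.52e-06) and miR-141 0.96 ± 0.151 higher (limma adjusted p = 9.77e-05), a call made for 44% of tested miRNAs. With a floor at the 5th percentile of all signals the log2 differences from astrocytes were 5.85 and 5.37, and with the brightest probe alone 3.64 and 2.98, against 4.64 and 3.65 with the floor and probe mean used here.

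The labelled cell type was checked against myeloid miRNAs. All 6 that were on the array, miR-142-3p, miR-142-5p, miR-146a, miR-146b, miR-150 and miR-223, were detected on all 3 microglia arrays. For comparison, each of these arrays detected 160 to 176 of all 350 miRNAs. All 6 were also called higher in microglia than in each other type, a call made for 19% of tested miRNAs. Their summed level was 2776% to 3233% of the scaling percentile in microglia, at most 201% in astrocytes, 63.4% to 168% in oligodendrocytes and 7.41% to 8.21% in neurons. Myeloid miRNAs were thus measurable in astrocyte and oligodendrocyte cultures, where miR-200c and miR-141 were not. In microglia, however, miR-200c stood at only 8.01% to 10.9% of the scaling percentile and miR-141 at 4.61% to 4.84%. On the astrocyte arrays, where both were undetected, miR-200c read 0.0787% to 0.264% and miR-141 -0.00973% to 0.307%. Whether a small share of the same cells was present in the astrocyte and oligodendrocyte cultures was not tested. No difference in source between miR-200c, miR-141 and the myeloid miRNAs is read from this contrast. Within the slide, miR-142-3p, which is made in blood-derived cells, was 13.4-fold higher in microglia than in astrocytes, and miR-142-5p from the same hairpin 16.4-fold. The myeloid regulators miR-223 and miR-146a were 13-fold and 16.8-fold higher, miR-150 was 114-fold and miR-146b 2.12-fold higher.

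**Figure D4:**
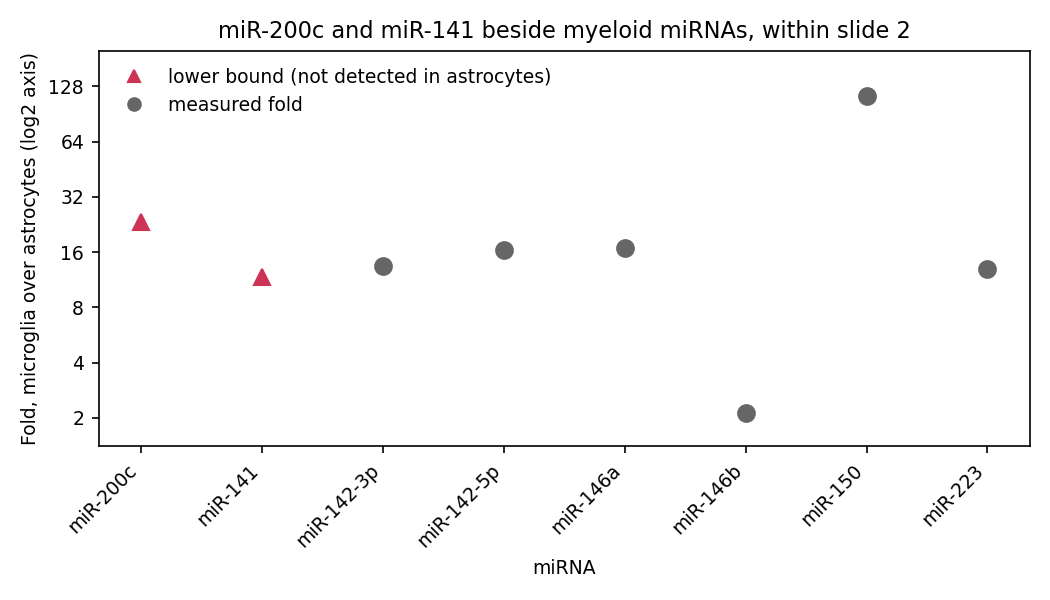
Fold of microglia over astrocytes on a log2 axis, from the difference in mean log2 level between 3 and 4 arrays on the same slide. Triangles are lower bounds for miR-200c (23.4) and miR-141 (11.7), which astrocyte arrays did not detect. They set the microglia mean against the averaged limit of the astrocyte arrays described above. Circles are measured folds of the myeloid miRNAs, from 2.12 for miR-146b to 114 for miR-150.

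The other miRNAs associated with epithelia were not detected beside miR-200c and miR-141. Of 9 on the list, none was detected on any microglia array, and their summed level there was 1.01% to 2.39% of the scaling percentile. Non-detection was common there, as each microglia array detected 160 to 176 of the 350 miRNAs. The linked miR-182, miR-183 and miR-96, known from sensory epithelia, the squamous epithelial miR-205, and miR-215 were detected on no array at all. That held for 19.7% of the 350 miRNAs, so these miRNAs do not set microglia apart. miR-203, known from skin, and miR-375, known from pancreatic islets, were detected on 3 of 4 astrocyte arrays each. Both were lower in microglia than in astrocytes, by at least 1.6-fold for miR-203 (limma adjusted p = 2.71e-05) and at least 1.49-fold for miR-375 (limma adjusted p = 3.34e-07), a call made for 29.9% of tested miRNAs. With normexp the log2 differences were 0.34 and 0.31 and neither passed. With the dimmer probe alone they were -0.98 and -0.09, and again neither passed.

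miR-192 and miR-194, made together in gut and kidney epithelium, were detected on all 10 arrays of neurons, astrocytes and oligodendrocytes and on none of microglia, the reverse of miR-200c. This was not particular to epithelial miRNAs, as miR-124, miR-137, miR-129 and miR-129* had the same detection pattern. Its share among all miRNAs was not counted. The level of miR-192 was -4.81 ± 0.11 in neurons, -4.92 ± 0.06 in astrocytes and -4.99 ± 0.67 in oligodendrocytes (SD), and -6.89 ± 0.85 in microglia, where it was below detection. miR-194 stood at -4.68 ± 0.10, -5.32 ± 0.08 and -5.33 ± 0.41, and at -7.17 ± 0.50 in microglia. Against astrocytes miR-192 was at least 3.67-fold lower in microglia (limma adjusted p = 5.66e-04) and miR-194 at least 3.42-fold lower (limma adjusted p = 1.84e-05). Both passed as lower than each other type, a call made for 19.4% of tested miRNAs. With normexp no difference of miR-192 or miR-194 passed and all 6 turned slightly positive, at 0.04 to 0.23. miR-192 against neurons also did not pass with the percentile taken over all miRNAs (-0.88), with quantile normalization (-0.53) or in the authors' deposited table (-0.32).

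**Figure D5:**
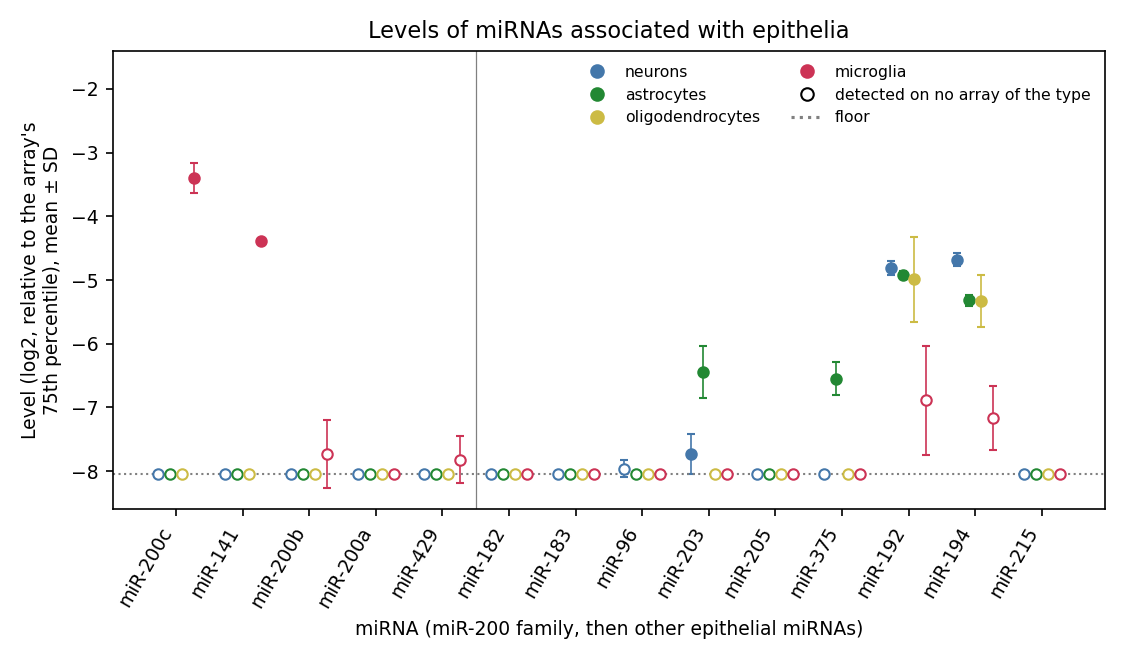
Level of the miR-200 family, left of the line, and of 9 other miRNAs associated with epithelia, right of it, as log2 relative to each array's 75th percentile, mean and SD by cell type (n = 3, or 4 for astrocytes). Open points were detected on no array of that type and the dotted line is the floor at -8.04. Of the miRNAs drawn, microglia arrays detected only miR-200c (-3.40) and miR-141 (-4.39), while miR-192 and miR-194 were detected in the 3 other types.

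Markers of other cells that the microglia cultures could hold were read for the same arrays. Neuronal miRNAs (7 of 7 on the array) summed to 16.4% to 22.4% of the scaling percentile in microglia, against 2823% to 2991% in neurons, and miR-124, miR-137, miR-129 and miR-129* were not detected in microglia. Of the other neuronal miRNAs, miR-128 (-3.37 ± 0.73) and miR-218 (-4.91 ± 0.68) were detected on all 3 microglia arrays and miR-132 on 1. None of the 7 was called higher in microglia than any other type. Oligodendrocyte miRNAs (4 of 4) summed to 15% to 21.1%, against 714% to 1243% in oligodendrocytes, with miR-219-5p and miR-338 detected on all 3 microglia arrays, miR-338* on 1 and miR-219-2-3p on none. Choroid plexus and ependymal miRNAs (5 of 5) summed to 4.49% to 12%, against at least 175% in astrocytes, 96% to 109% in neurons and 6.71% to 6.96% in oligodendrocytes. Among microglia arrays, the choroid plexus miRNA miR-204 and its relative miR-211 were detected on array 3 only, at levels of -5.32 and -4.89. miR-204 was also detected on all arrays of neurons (mean -0.24), astrocytes (-1.69) and oligodendrocytes (-5.21). miR-211 was also detected on 3 neuron and 2 astrocyte arrays. The ciliated-cell miRNA miR-449a was detected on all 3 microglia arrays, at -4.67, -5.21 and -4.47, against 0.34 ± 0.14 in astrocytes and -3.72 ± 0.05 in neurons. It was higher in microglia than in oligodendrocytes, whose arrays did not detect it (limma adjusted p = 1.33e-06). miR-34b was detected on 2 microglia arrays and miR-34c on none.

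The fibroblast list (3 of 3) summed to 1.27% to 2.43% in microglia, against 2.68% to 3.94% in astrocytes, with miR-199a-3p detected on 1 microglia array and the other 2 on none. Of the erythroid and endothelial lists, miR-451, miR-126 and miR-126* were detected in microglia, and miR-451 and miR-126 also in neurons. miR-126 was detected on 1 of 4 astrocyte arrays as well. The erythroid list (2 of 2) summed to 1.6% to 1.84% in microglia and 4.04% to 4.86% in neurons, and lay below 0 on every array of astrocytes and oligodendrocytes. Its miR-451, known from red blood cells, was at -5.72 ± 0.57 in microglia (detected on 3 of 3 arrays) and -4.64 ± 0.15 in neurons, and was undetected in astrocytes and oligodendrocytes (limma adjusted p = 1.08e-06 and 2.01e-06 for microglia against these). In neurons miR-451 was higher than in microglia (limma adjusted p = 6.85e-04). miR-144 was detected on no array. The endothelial and mural list (4 of 4) summed to 15.6% to 24% in microglia, 4.2% to 6.94% in astrocytes, 3.03% to 3.44% in neurons and -0.187% to 0.114% in oligodendrocytes. Its largest part in microglia was miR-126, known from endothelium, at -2.71 ± 0.29 and at -5.38 ± 0.14 in neurons (SD, n = 3). miR-126 was higher in microglia than in neurons, astrocytes and oligodendrocytes (limma adjusted p = 1.34e-07, 1.83e-09 and 7.49e-10). The call against each other type was made for 19% of tested miRNAs. The opposite strand miR-126* was at -4.88 ± 0.48 in microglia, detected on 2 of 3 arrays there and on no other array. The mural miR-143 and miR-145 were not detected in microglia, and miR-143 was detected on all astrocyte arrays, at -4.40 ± 0.30. The part of endothelial, erythroid, choroid plexus or ependymal cells in the miR-200c and miR-141 signal was not tested.

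Across the 13 arrays miR-200c and miR-141 followed each other, with a Pearson correlation of log2 levels of 0.999, and 0.993 in the authors' deposited table. Outside the family the tested miRNAs with the most similar pattern by these levels were the same 3 for both members. These were miR-16 (0.993 with miR-200c and 0.995 with miR-141), miR-532-5p (0.981 and 0.984) and miR-500 (0.98 and 0.981). The points of miR-200c and miR-141 share the floor on 10 arrays, so these correlations describe little more than microglia against the rest. In the authors' deposited table the ranks by likeness to miR-200c and to miR-141 were 4 and 3 for miR-16, 6 and 5 for miR-532-5p, and 19 and 19 for miR-500.

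The look-alikes differed from miR-200c and miR-141 in being detected on all 13 arrays. miR-16, a widely expressed miRNA, had levels of 2.85 to 3.02 in microglia and 1.54 to 1.70 on the other arrays, without overlap, as for 17.9% of tested miRNAs. Its fold over astrocytes was 2.43 (limma adjusted p = 7.19e-09), but without scaling between arrays the log2 differences of miR-16 from neurons, astrocytes and oligodendrocytes were 0.38, 0.63 and 0.76 and none passed. miR-500 and miR-532-5p, which lie near each other on the X chromosome in mammals, were 5.88-fold and 6.2-fold higher in microglia than in astrocytes (limma adjusted p = 3.28e-11 and 1.99e-10). The look-alikes were picked on these arrays for likeness to a pattern high in microglia alone. Their higher levels in microglia, the lack of overlap and the p-values therefore follow from the choice and are no support by themselves.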

How the data were processed

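The authors hybridised 100 ng of Cy3-labelled total RNA per sample, per the labels' protocols, and ran Agilent Feature Extraction 9.5.3.1, per the file headers. The deposited files hold intensity per spot and total intensity per miRNA, background-subtracted and unscaled. The deposited series table, an alternative here, holds log2 values whose 13 columns share a median of 5.15 and rank as the total signals do, with direction thus settled but normalization not stated. Outlier spots were dropped, spots averaged per probe and probes per miRNA, scaled, floored at -8.04 and fitted over all arrays with limma 3.58.1 in R 4.3.3, with p-values adjusted by Benjamini-Hochberg across the 268 tested miRNAs and called at 0.05. The fit was tested on simulated data. The small number of arrays limits the precision.

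Members, lists and tests were chosen with earlier results of these data known. Named were all members, the list of other epithelial miRNAs, and the 3 tested miRNAs most correlated with each tested member. Same-numbered arrays did not deviate together (18 pairs, r from -0.339 to 0.202), so no pairing was used. Of 7 myeloid miRNAs listed, miR-155 was not analysed here. Alternatives covered background, scaling, floor, filter, probe summary, prior, samples fitted, pairing and leaving out each array. Figures used matplotlib 3.10.9.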

Additional observations from a re-analysis of the deposited data

How the results depend on the processing

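All 282 alternative values of the miR-200c and miR-141 comparisons and of the count of 2 members kept their direction and their side of the threshold. Both miRNAs were detected on microglia arrays alone and so had to differ. The kept direction is therefore no support by itself, and the values show how the size moved with the processing. Leaving out each array in turn gave log2 differences of 4.47 to 4.8 for miR-200c and 3.47 to 3.73 for miR-141. For the microglia arrays this needed detection on at least 2 arrays, a setting added after seeing the data, because the members then lay on 2 arrays. Other settings gave 1.32 to 6.32 for miR-200c and 0.96 to 5.68 for miR-141, lowest with normexp. The highest limma adjusted p was 1.61e-05 for miR-200c, with only the groups compared in the fit, and 1.80e-04 for miR-141, with normexp. The cause was not tested. With the replicate block, differences stayed at 4.64 and 3.65 (highest limma adjusted p 1.21e-08 and 3.01e-09) and the count at 2, and the block changed no other call. Detection on all arrays left no member to test. Of the values of other named miRNAs, 483 kept direction and call and 8 reversed, all with normexp: miR-203 (0.34) and miR-375 (0.31) against astrocytes, and miR-192 (0.23, 0.09 and 0.04) and miR-194 (0.17, 0.20 and 0.14) against neurons, astrocytes and oligodendrocytes. A further 8 lost their call. The median difference of all tested miRNAs between microglia and neurons was -0.58 with the main scaling and ran from -1.50 without scaling to 0.38 with the percentile over all miRNAs. Against astrocytes it ran from -0.09 to 0.20. Levels below detection, and whether the 10 other arrays differ among themselves, cannot be read at this signal over background.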
